A study of Mus musculus with 4 samples.

Results

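Colony-stimulating factors are the secreted proteins that keep myeloid cells alive and direct their growth. The 9 genes described here were the mouse genes for the ligands *Csf1*, *Il34*, *Csf2* and *Csf3* and for the receptor chains *Csf1r*, *Csf2ra*, *Csf2rb*, *Csf2rb2* and *Csf3r*. They were chosen by name, and all 9 had a row among the 54532 genes of the deposited counts. CSF1 and IL-34 both bind CSF1R, a receptor tyrosine kinase on which most tissue macrophages depend. CSF2 (GM-CSF) binds an alpha chain, encoded by *Csf2ra*, which signals through the common beta chain encoded by *Csf2rb*. The mouse also has *Csf2rb2*, a close copy whose product serves IL-3, and CSF3 (G-CSF) binds CSF3R, the main growth receptor of neutrophils. In tumors, CSF1 made by tumor or stromal cells is known to draw in and sustain macrophages.

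RNA was sequenced from tumor-associated macrophages (TAMs), isolated from subcutaneous NB9464 tumors by magnetic beads against CD11b and F4/80. NB9464 is a murine neuroblastoma line with amplified *MYCN*, and tumors were taken on day 40 after implantation with no treatment given. The libraries M7 and M8 were labelled SYK WT and the libraries M9 and M10 were labelled SYK KO. Both kinds of host were C57BL/6 mice a few weeks old at implantation. The knockout hosts carried floxed *Syk* and a Cre driven by the lysozyme M gene (*Lyz2*), which is active in myeloid cells, neutrophils included. The *Syk* gene of the implanted NB9464 cells and of other host cells was thus left intact, though the paper found no Syk protein in NB9464 cells. The labels do not say whether a library held 1 animal or several, so p-values measure only the spread between these libraries. The labels also state in 1 place that the RNA came from bone marrow-derived macrophages, and the series title names an adoptive transfer.

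The libraries held 20755886 to 23518045 counts, and 3 counts, taken as the lowest detectable signal, came to between 0.109 and 0.163 CPM. *Syk* itself went against the labels: its counts were 765 and 569 in M7 and M8 and 4033 and 2944 in M9 and M10, so every direction below is that of the libraries as labelled. *Lyz2*, the gene whose driver the Cre uses, went the other way, with 8109 and 5115 counts in M7 and M8 and 178 and 371 in M9 and M10. After the TMM scaling described below, the log2 fold change was 2.80 for *Syk* and -4.13 for *Lyz2*. The median over 9 macrophage markers was 3.16. Macrophage markers were present in all 4 libraries, but in M7 and M8 the summed fibroblast markers, mostly *Col1a1* and *Col3a1*, exceeded them. Summed over 9 macrophage markers, the level was 685 to 981 TMM CPM (counts relative to the library total, scaled by edgeR's TMM method) in SYK WT and 5183 to 8408 in SYK KO. Summed over 8 fibroblast markers, it was 12425 to 14312 in SYK WT and 4054 to 4947 in SYK KO. In M7 and M8, *Col1a1* alone stood at 5662 and 6641 TMM CPM and *Col3a1* at 6158 and 7118. Each of the other fibroblast markers was at most 248 TMM CPM in any library. By the test below 5 of the 8 were lower, against 16.7% of all tested genes, while *Dcn*, *Lum* and *Fbln1* were not called. In bulk samples of this kind, fewer cells of a type and less RNA per cell cannot be told apart. Mitochondrial genes took 15.9% of the counts of M10 and 2.20% to 6.00% in the others. By edgeR's quasi-likelihood test at an adjusted p under 0.05, 3729 of 16451 tested genes were higher (22.7%) and 2747 were lower (16.7%) in the libraries labelled SYK KO. This split followed the scaling of the libraries. By library size alone it was 1677 higher and 5411 lower, scaled to macrophage markers 117 and 14373, scaled to 6 pan-leukocyte genes 91 and 14922, and scaled to fibroblast markers 8955 and 521.

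After TMM scaling, the tested ligands and the receptors moved in opposite directions. Of the 4 ligand genes, *Csf1* and *Il34* were abundant enough to test, and both were lower in the libraries labelled SYK KO, against 16.7% of all tested genes. Scaled to fibroblast markers, which raises most genes, 0 of these 2 ligands were called. All 5 receptor genes were tested and all 5 were higher after TMM scaling, against 22.7% of all tested genes, although scaling to macrophage markers or pan-leukocyte genes, which lowers most genes, left 0 of them higher and only *Csf2ra*, on the pan-leukocyte scale, called lower. The median log2 fold change was -1.41 over the 2 tested ligands and 2.69 over the 5 receptors, beside 0.02 over all tested genes. For all members except *Csf2*, the libraries of the 2 genotypes did not overlap. Separation of this kind is common with 2 libraries per genotype: it held for 38% of tested genes with SYK KO above and 37.2% with SYK KO below.

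**Figure D1:**
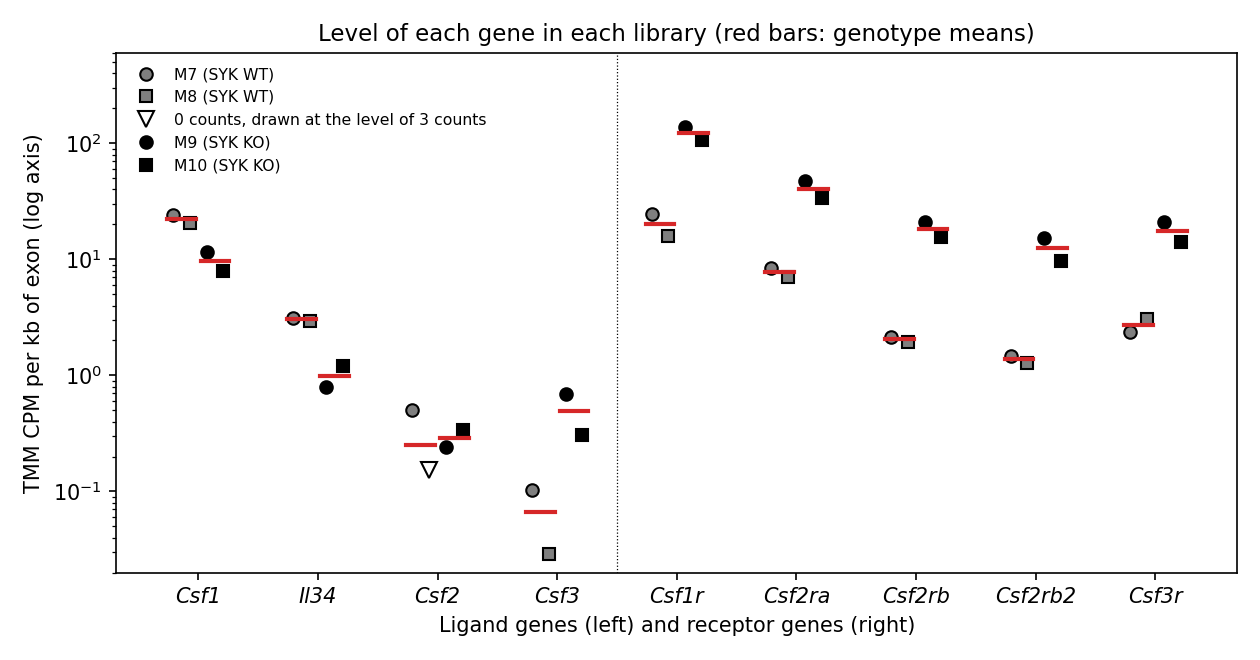
Level of each ligand and receptor gene in each library, in TMM CPM per kb of exon on a log axis. Grey symbols are the libraries labelled SYK WT, black symbols those labelled SYK KO, red bars are the means of 2 libraries, and the open triangle is a library with 0 counts of *Csf2*. The black symbols lie below the grey ones for *Csf1* and *Il34* and above them for *Csf3* and all 5 receptors.

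*Csf1* (chr3:107741048-107760469, minus strand, GRCm38) was the main ligand transcript. It stood at 128 and 109 TMM CPM in M7 and M8 and at 60.9 and 41.6 TMM CPM in M9 and M10. Both SYK WT libraries thus lay above both SYK KO libraries. The means were 119 ± 13.1 and 51.3 ± 13.6 TMM CPM (SD, n = 2 each), a 2.32-fold lower level in the libraries labelled SYK KO (log2 fold change -1.21, SE 0.22, adjusted p = 0.00806 by edgeR's quasi-likelihood test). *Il34* (chr8:110741829-110805924, minus strand), the other ligand of CSF1R, stood at 6.09 and 5.82 TMM CPM in M7 and M8 and at 1.55 and 2.34 TMM CPM in M9 and M10. Here too the genotypes did not overlap. The log2 fold change was -1.61 (SE 0.40, adjusted p = 0.0226). This call was lost without either SYK WT library, at -1.58 (adjusted p = 0.178) without M7 and -1.65 (adjusted p = 0.176) without M8, and it held without M9 or M10. Between the genotypes the ratio of *Csf1* to *Il34* per kb of exon overlapped, at 7.797, 6.98, 14.5 and 6.59 in M7, M8, M9 and M10.

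*Csf2* and *Csf3* were near the limit of detection and were not tested in the main comparison. *Csf2* (chr11:54247271-54249667, minus strand), which encodes GM-CSF, had 11, 0, 4 and 5 counts in M7, M8, M9 and M10. The genotypes overlapped, and the summed counts gave a ratio of SYK KO to SYK WT of 1.09 with a 95% counting interval of 0.400 to 2.90, so a difference was not detectable at this depth. *Csf3* (chr11:98701263-98703629, plus strand), which encodes G-CSF, had 4, 1, 20 and 8 counts. Both SYK KO libraries were above both SYK WT libraries, and the ratio was 7.48 with a 95% counting interval of 2.85 to 24.8. These intervals cover counting error only and not the spread between libraries. In tests that kept these genes, the adjusted p of *Csf3* was 0.152 with DESeq2's Wald test and 0.0907 with edgeR on all genes with at least 1 count. With 1 library left out it was 0.311 without M7, 0.537 without M8 and 0.00982 without M10. At matched transcript length both ligands were far below *Csf1* in every library.

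The promoter window of *Csf1* is shown because it holds the only NF-kappaB match among the 5 promoter windows that were listed for the members. RefSeq promoters of GRCm38.p6, running from 250 bases before to 50 bases after the start site, were listed for 5 of the 9 genes (*Csf1*, *Csf2*, *Csf2ra*, *Csf2rb2* and *Csf3r*). Both strands were searched for 4 motifs, and each share below is that among all 32851 promoters of this length. The PU.1 motif was searched as GAGGAA and occurred in 28.3% of them. The C/EBP motif was searched as TTNNGNAA and occurred in 40.7%. The TATA box was searched as TATAAA and occurred in 13.6%, and the NF-kappaB motif occurred in 1.63%. The *Csf1* window (chr3:107760420-107760719, minus strand) has its match on the opposite strand, 154 to 145 bases before the start site, in capitals.
Csf1 promoter: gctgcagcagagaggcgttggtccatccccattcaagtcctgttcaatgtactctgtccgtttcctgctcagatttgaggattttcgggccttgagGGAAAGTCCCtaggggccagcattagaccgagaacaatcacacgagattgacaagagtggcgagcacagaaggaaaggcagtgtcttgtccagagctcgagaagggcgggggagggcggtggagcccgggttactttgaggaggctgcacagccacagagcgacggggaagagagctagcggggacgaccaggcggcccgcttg
No other motif of the 4 was found in this window, and the *Csf2* window held 1 C/EBP match. That *Csf2* window (chr11:54249850-54250149, minus strand) lies wholly before the gene start annotated in GENCODE (base 54249667). The bases next to that start were therefore not searched. A match describes the letters and not a bound site.

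*Csf1r* (chr18:61100598-61132149, plus strand) was the most abundant receptor transcript. Its level was 142 and 91.1 TMM CPM in M7 and M8 and 803 and 616 TMM CPM in M9 and M10. Both SYK KO libraries lay above both SYK WT libraries, and the libraries of each genotype differed from each other by less than the genotypes did. The means were 116 ± 35.8 and 710 ± 133 TMM CPM (SD, n = 2 each), with a log2 fold change of 2.61 (SE 0.28, adjusted p = 0.00167 by edgeR's quasi-likelihood test).

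The chains of the CSF2 receptor were higher as well. *Csf2ra* (chr19:61223957-61228429, minus strand), the ligand-binding alpha chain, stood at 24.2 and 20.1 TMM CPM in M7 and M8 and at 135 and 96.1 TMM CPM in M9 and M10. *Csf2rb* (chr15:78325752-78353847, plus strand), the common beta chain, stood at 15.6 and 14.2 TMM CPM in M7 and M8 and at 154 and 114 TMM CPM in M9 and M10. *Csf2rb2* (chr15:78282507-78305721, minus strand), the IL-3 beta chain, stood at 6.96 and 6.06 TMM CPM in M7 and M8 and at 72.2 and 46.1 TMM CPM in M9 and M10. The genotypes did not overlap for any of the 3 chains, and M9 was the highest library for each. The log2 fold changes were 2.38 for *Csf2ra* (SE 0.22, adjusted p = 0.00115), 3.17 for *Csf2rb* (SE 0.21, adjusted p = 0.000653) and 3.18 for *Csf2rb2* (SE 0.27, adjusted p = 0.000898). *Csf3r* (chr4:126024550-126044440, plus strand) stood at 8.53 and 11.1 TMM CPM in M7 and M8 and at 75.3 and 51.1 TMM CPM in M9 and M10. It was the only receptor whose higher SYK WT library was M8, and its log2 fold change was 2.69 (SE 0.26, adjusted p = 0.00124).

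Neutrophils carry much of the CSF3R of a tissue, and their markers, like those of macrophages, moved with *Csf3r* between the genotypes. Of 9 neutrophil markers, 6 were tested and 5 were higher, against 22.7% of all tested genes. *Ltf* was not called, and *Ly6g*, *Camp* and *Ngp* were not tested. The summed level was 21.4 and 31.9 TMM CPM in M7 and M8 and 391 and 183 TMM CPM in M9 and M10. *S100a9* was the largest part of this sum in every library. *Ly6g*, a defining marker, had at most 5 counts in any library. The ratio of *Csf3r* counts to the summed neutrophil counts was 0.399 and 0.347 in M7 and M8 and 0.193 and 0.278 in M9 and M10. It was thus not higher in the libraries labelled SYK KO (exact two-sided permutation p = 0.333, the smallest possible here). This was not particular to *Csf3r*. The same ratio for *Csf2ra* was 1.13 and 0.629 in M7 and M8 and 0.344 and 0.524 in M9 and M10. For *Csf1r*, *Csf2rb* and *Csf2rb2* it overlapped. *Csf3r* relative to the macrophage markers also overlapped, at 0.106, 0.199, 0.125 and 0.133 in M7, M8, M9 and M10. The part of neutrophil RNA in the *Csf3r* result was not tested.

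*Csf2rb* and *Csf2rb2* are neighbours on chromosome 15, and their reads can be confused. The coding sequences of the compared transcripts matched at 95.2% of 2628 aligned bases, with an unbroken identical run of 242 bases. Of the distinct 31-base words of the annotated transcripts, 19.6% of those of *Csf2rb* and 30.1% of those of *Csf2rb2* also occurred in another gene. The 60-base coding stretch below, from the part where the copies differ most, shows how reads can still tell them apart, with the 13 differing bases in capitals (GENCODE M21 transcripts, from coding base 304 of *Csf2rb* and 307 of *Csf2rb2*).
Csf2rb: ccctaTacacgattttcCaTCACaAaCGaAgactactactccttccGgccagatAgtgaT
Csf2rb2: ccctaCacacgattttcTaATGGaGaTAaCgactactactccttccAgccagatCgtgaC
The ratio of the copies per kb of exon was 1.46, 1.52, 1.39 and 1.61 in M7, M8, M9 and M10, so the values of the genotypes overlapped. Since reads may have been divided between the copies, the single values of these genes are uncertain. Their summed counts gave a log2 fold change of 3.17 (adjusted p = 0.000691 by edgeR's quasi-likelihood test). *Csf3r* shared 23.1% of its words with other transcripts, chiefly the pseudogene AC105061.2, which was not analysed here. For the other 6 members the share was at most 0.41%.

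The promoters of the 3 receptor genes in the RefSeq table all held a PU.1 match, and they are shown because PU.1 and C/EBP proteins are known activators of myeloid receptor genes. Capitals mark matches to the letters given above on either strand: *Csf2ra* (chr19:61228369-61228668, minus strand) has 1 C/EBP match 31 to 24 bases before the start site and 2 adjoining PU.1 matches from 14 to 3 bases before it. *Csf2rb2* (chr15:78305672-78305971, minus strand) has 2 PU.1 and 2 C/EBP matches, of which 1 pair overlaps from base 30 after the start site. *Csf3r* (chr4:126024409-126024708, plus strand) has 1 PU.1 match 86 to 81 bases before it.
Csf2ra promoter: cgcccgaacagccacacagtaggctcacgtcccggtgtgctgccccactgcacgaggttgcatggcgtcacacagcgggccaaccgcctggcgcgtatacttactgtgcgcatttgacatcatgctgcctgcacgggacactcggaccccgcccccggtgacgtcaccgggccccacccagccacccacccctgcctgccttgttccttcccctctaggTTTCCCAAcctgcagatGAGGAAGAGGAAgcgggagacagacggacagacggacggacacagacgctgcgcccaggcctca
Csf2rb2 promoter: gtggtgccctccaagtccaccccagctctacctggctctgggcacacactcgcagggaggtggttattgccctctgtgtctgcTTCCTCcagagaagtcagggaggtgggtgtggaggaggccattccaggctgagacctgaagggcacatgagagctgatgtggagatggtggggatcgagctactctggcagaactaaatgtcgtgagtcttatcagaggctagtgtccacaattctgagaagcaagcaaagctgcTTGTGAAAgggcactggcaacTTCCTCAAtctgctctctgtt
Csf3r promoter: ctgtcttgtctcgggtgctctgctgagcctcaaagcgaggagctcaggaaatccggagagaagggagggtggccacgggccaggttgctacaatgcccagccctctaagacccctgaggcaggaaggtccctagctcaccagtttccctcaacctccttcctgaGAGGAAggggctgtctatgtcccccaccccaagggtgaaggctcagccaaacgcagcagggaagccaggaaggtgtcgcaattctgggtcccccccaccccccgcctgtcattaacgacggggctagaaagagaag
With PU.1 letters in 28.3% of all promoters, and with windows for 3 of 5 receptors, these matches are a description only.

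The order of the levels can be compared between genes per kb of exon. In the libraries labelled SYK WT, *Csf1* (22.5 ± 2.48 TMM CPM per kb, SD, n = 2) and *Csf1r* (20.2 ± 6.19) overlapped at the top. Below them came *Csf2ra* (7.71 ± 1.02), then *Il34* (3.04 ± 0.097) and *Csf3r* (2.72 ± 0.497), which overlapped, and then *Csf2rb* (2.04 ± 0.137) and *Csf2rb2* (1.37 ± 0.134), with *Csf2* and *Csf3* last. In the libraries labelled SYK KO, *Csf1r* led at 123 ± 23.0 TMM CPM per kb, followed by *Csf2ra* at 40.2 ± 9.49. *Csf2rb* (18.4 ± 3.89), *Csf3r* (17.5 ± 4.75) and *Csf2rb2* (12.5 ± 3.89) followed, each overlapping the next. *Csf1* stood at 9.71 ± 2.58 TMM CPM per kb and overlapped *Csf2rb2*, *Il34* stood at 0.995 ± 0.285, and *Csf3* and *Csf2* overlapped at the end. Summed per kb, the 4 ligands made up 41.8% and 44.96% of all member transcripts in M7 and M8 and 5.17% and 5.14% in M9 and M10. Within the receptors the composition changed less, with *Csf1r* at 63.0%, 54.3%, 57.2% and 59.4% of the receptor sum in M7, M8, M9 and M10.

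Ratios within a library do not depend on how libraries are scaled to each other. The ratio of *Csf1* to *Csf1r* per kb of exon was 0.988 and 1.31 in M7 and M8 and 0.0828 and 0.0739 in M9 and M10. Ligand and receptor transcripts were thus about even in the libraries labelled SYK WT, while the receptor led by 12.1 and 13.5 to 1 in M9 and M10. The mean log2 ratio was lower by 3.86 on the log2 scale, or 14.6-fold, in the libraries labelled SYK KO, where the SD within a genotype was 0.29 and 0.12 on the log2 scale. The ratio of *Il34* to *Csf1r* was 0.127 and 0.188 in M7 and M8 and 0.00570 and 0.0112 in M9 and M10, a 19.3-fold difference. For both ratios the genotypes did not overlap, and the exact two-sided permutation p was 0.333, the smallest that 2 libraries against 2 allow. *Csf2* to *Csf2ra* and *Csf3* to *Csf3r* were not compared, since a ligand had fewer than 10 counts in at least 1 library.

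Among the receptor chains, the beta chains stood higher against the alpha chain in the libraries labelled SYK KO. The ratio of *Csf2rb* to *Csf2ra* per kb was 0.254 and 0.278 in M7 and M8 and 0.451 and 0.468 in M9 and M10, a 1.73-fold difference. The ratio of *Csf2rb2* to *Csf2ra* was 0.174 and 0.183 in M7 and M8 and 0.325 and 0.291 in M9 and M10. Neither ratio overlapped between genotypes (exact two-sided permutation p = 0.333 for each). *Csf1r* to *Csf3r* overlapped, at 10.4, 5.14, 6.67 and 7.54 in M7, M8, M9 and M10.

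**Figure D2:**
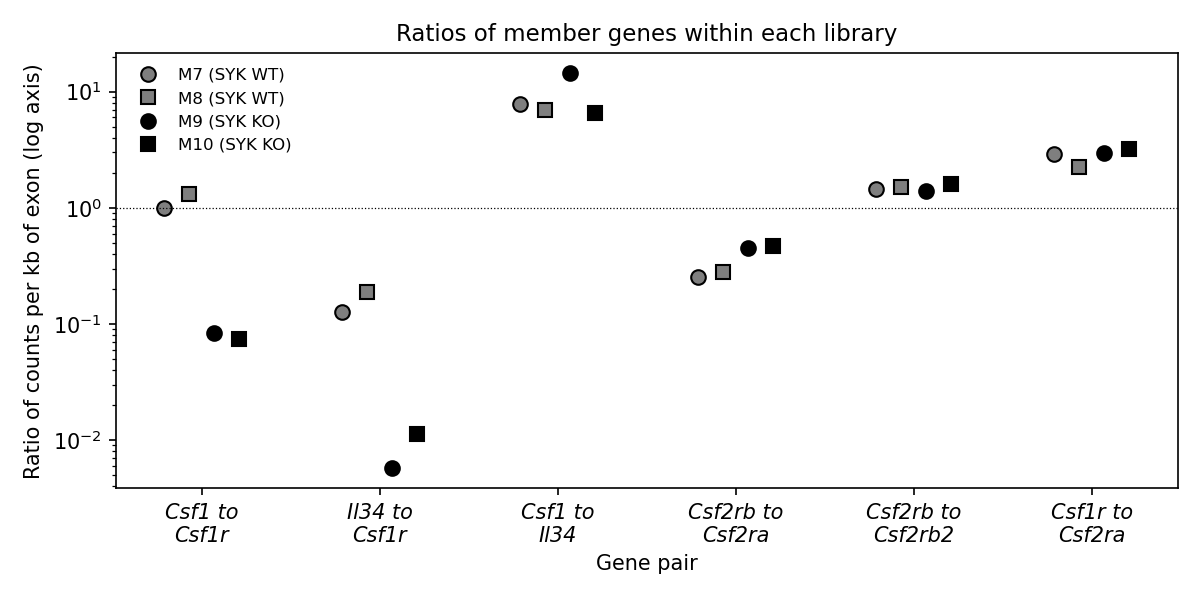
Ratio of member genes within each library, in counts per kb of exon on a log axis, with grey symbols for SYK WT and black for SYK KO. The ligand to receptor ratios at the left are 0.988 and 1.31 in SYK WT and 0.0828 and 0.0739 in SYK KO for *Csf1*, while *Csf2rb* to *Csf2rb2* lies between 1.39 and 1.61 in all 4 libraries.

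The size of each change, and for the receptors also its side, depended on the genes to which the libraries were scaled. Scaled to the 9 macrophage markers, none of the 5 receptors was called, and 0 had an unadjusted p under 0.05: *Csf1r* was at -0.21 (SE 0.54), *Csf2ra* at -0.48, *Csf2rb* at 0.30, *Csf2rb2* at 0.30 and *Csf3r* at -0.24 on the log2 scale, with adjusted p-values from 0.368 to 0.714 by edgeR's quasi-likelihood test. On that scale 87.4% of all tested genes were lower, and *Csf1* and *Il34* were among them at -4.09 and -4.39. Scaled to 6 pan-leukocyte genes, *Csf2ra* was lower at -0.87 (adjusted p = 0.0104), and the other 4 receptors lay between -0.62 and -0.09 and were not called. Scaled to 8 fibroblast markers, a setting added after the data were seen, *Csf1* was at -0.11 (SE 0.34, adjusted p = 0.801) and *Il34* at -0.58 (adjusted p = 0.284), while all 5 receptors were higher by 3.48 to 4.29. On the fibroblast scale 54.4% of all tested genes were higher and 3.17% lower, and on the pan-leukocyte scale 90.7% were lower. The median of all tested genes was -2.81, -3.21 and 1.08 on these 3 scales. In counts relative to the geometric mean of the macrophage markers, *Csf1r* stood at 1.76 and 1.64 in M7 and M8 and at 1.33 and 1.60 in M9 and M10. *Csf1* relative to the fibroblast markers was 0.647 and 0.511 in M7 and M8 and 0.703 and 0.372 in M9 and M10. For *Il34* this ratio did not overlap between genotypes, at 0.0308 and 0.0272 in M7 and M8 and 0.0179 and 0.0209 in M9 and M10. Between the genotypes, the receptors thus moved with the macrophage markers and *Csf1* with the fibroblast markers. Within a genotype *Csf1* did not. It fell from 128 to 109 TMM CPM between M7 and M8 and from 60.9 to 41.6 between M9 and M10. Over the same pairs the summed fibroblast level rose, from 12425 to 14312 and from 4054 to 4947 TMM CPM. The part of cell composition in these results was not tested.

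**Figure D3:**
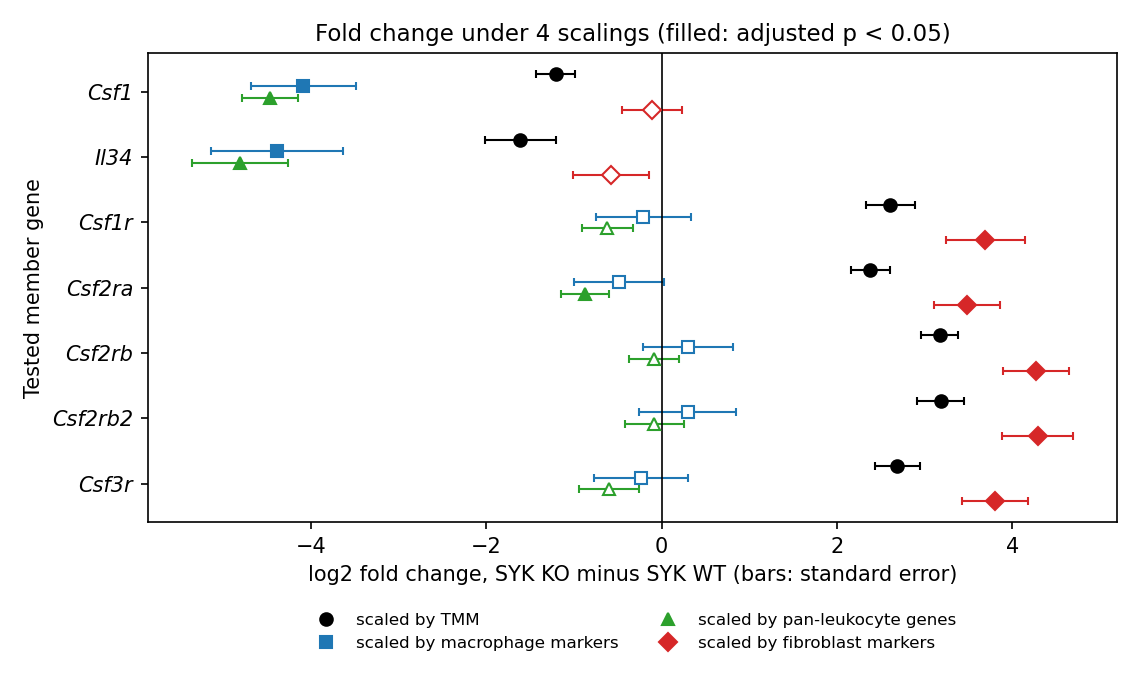
Log2 fold change of the 7 tested members, SYK KO minus SYK WT, with standard errors, after TMM scaling and after scaling to 3 marker lists. Filled symbols passed an adjusted p of 0.05; the receptors lie between 2.38 and 3.18 after TMM and between -0.48 and 0.30 after scaling to macrophage markers.

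By the rule used for likeness (the smallest sum of squared differences in centred log2 CPM over the 4 libraries, among 14262 genes), *Cyb5d1*, *Nav1* and *Mok* were most like *Csf1*, and *Trf*, *Nuak2* and *Kcnk6* were most like *Csf1r*. With 4 libraries many genes come close, and the names are given as a description.

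Other genes that bind these proteins were measured with the members. Of the relatives that share the beta chain, *Il3ra*, the IL-3 receptor alpha chain, was higher by 0.72 on the log2 scale (adjusted p = 0.0226 by edgeR's quasi-likelihood test), from 20.4 ± 0.104 to 33.6 ± 4.77 TMM CPM (SD, n = 2 each). It was not called by library size alone (0.18) or without M7 (adjusted p = 0.150) or M8 (0.193), and scaled to macrophage markers it was lower, as most genes were. *Il3* had 0 counts in all 4 libraries, and *Il5* and *Il5ra* had at most 2 counts in any library. Of the other known receptors of IL-34, *Sdc1* (syndecan-1) was lower by 0.70, from 263 ± 23.4 to 162 ± 2.03 TMM CPM (adjusted p = 0.0182), and *Ptprz1* was not tested. The *Sdc1* call was lost without M7 (adjusted p = 0.189) and without M8 (0.106), and with fibroblast scaling *Sdc1* was at 0.37 (0.320). Of 10 tested ligands and receptors of other blood cell growth factors, 3 passed the test as higher and 1 as lower, near the 22.7% and 16.7% of all tested genes, and the median was 0.24 on the log2 scale. The receptor chains *Flt3* (3.91), *Il7r* (2.998) and *Il2rg* (3.23) were higher, though 0 of them were called with macrophage scaling, and the ligand *Thpo*, thrombopoietin, was lower at -2.53 but not called without M7 (adjusted p = 0.0654) or M8 (0.143). T cell markers moved with these receptor chains after TMM scaling: 5 of 6 were higher, against 22.7% of all tested genes, while *Cd8a*, at -0.44, was not called. Their summed level was 9.22 and 4.48 TMM CPM in M7 and M8 and 56.5 and 33.5 in M9 and M10. Only 1 of the 6 had at least 10 counts in every library. Scaled to macrophage markers or to pan-leukocyte genes, 0 of the 6 T cell markers were called higher and 1 was lower. Their part in the result was not tested. *Kitl*, the ligand of KIT, was at -1.22 with an adjusted p of 0.0804.

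Many signalling genes that act below the receptors were higher after TMM scaling. Of 18 JAK-STAT genes, 10 were higher and 0 were lower (median 1.03), against 22.7% and 16.7% of all tested genes, with 0 lower at an unadjusted p under 0.05 and 1, *Socs3*, lower by DESeq2's Wald test. By library size alone the list gave 7 higher and 5 lower. The blood cell kinase *Lyn* (3.11) and the phosphatase *Ptpn6* (3.32) were among those higher, and the STAT5 targets *Pim1* (2.21), *Cish* (1.72) and *Socs2* (1.24) were higher too, though *Socs2* was not called without M7 (adjusted p = 0.116) or by library size alone (0.096). *Jak2*, the kinase bound to the beta chain, was at -0.28 (adjusted p = 0.295) and *Stat3* was at -0.30 (adjusted p = 0.211). *Stat5b* was higher at 1.44, whereas *Stat5a* was at 0.87 with an adjusted p of 0.113. Of 24 genes of CSF1R signalling and turnover, 15 were higher and 0 were lower (median 1.13), with 1, *Pik3r1*, lower at an unadjusted p under 0.05 and 0 lower by DESeq2. They included *Fgr* (4.20), *Dok2* (3.44), the adaptor *Tyrobp* (3.21) and *Adam17* (1.495), the protease that sheds CSF1R from the surface. *Grb2*, *Cbl*, *Egr1* and *Fos* were among the 9 that were not called. Scaled to macrophage markers, 0 JAK-STAT genes were higher, also at an unadjusted p under 0.05, and 14 were lower, and of the CSF1R signalling genes only *Fgr* was higher and 18 were lower. As 87.4% of all tested genes were lower and 0.711% higher on that scale, these counts are near or below the background and are not a result about the lists.

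Transcription factors that act on the receptor genes were mostly higher, with 9 of 11 tested genes higher and 0 lower by edgeR's quasi-likelihood test, by its unadjusted p and by DESeq2 (median 1.84), against 22.7% and 16.7% of all tested genes. *Spi1*, which encodes PU.1, was at 23.9 ± 4.48 TMM CPM in SYK WT and 240 ± 72.7 in SYK KO (log2 fold change 3.32, adjusted p = 0.000898). *Cebpa* (3.14), *Irf8* (3.04) and *Cebpb* (1.75) were higher as well. *Cebpe*, a factor of late granulocyte maturation, had 0, 2, 32 and 28 counts in M7, M8, M9 and M10. *Runx1* was at 0.05 and *Klf4* at 0.01. Scaled to macrophage markers, 0 of these genes were higher, also at an unadjusted p under 0.05, and 4 of 11 were lower, against 0.711% and 87.4% of all tested genes.

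Most genes known to be induced by CSF2 or CSF1 were higher after TMM scaling. Of 10 genes known to respond to CSF2, all 10 were higher (median 4.42), against 22.7% of all tested genes, with *Ccl17* at 0.615 ± 0.00664 TMM CPM in SYK WT and 44.97 ± 19.7 in SYK KO (log2 fold change 6.18, adjusted p = 0.000674). *Ccl22* (5.94), which like *Ccl17* encodes a ligand of CCR4, was next. *Cd74* (5.01), the MHC class II invariant chain, *Itgax* (4.84), which encodes CD11c, and *Irf4* (4.12) were higher too. Of 7 tested genes known to respond to CSF1, 6 were higher (median 2.74), among them *Ccl2* (3.20), *Trem2* (2.89) and *Mrc1* (2.74), while *Ctsk* was at -0.28. After scaling to macrophage markers, where 0.711% of all tested genes were higher, 5 of the 10 CSF2-induced genes were higher: *Ccl17* (3.27), *Ccl22* (3.13), *Cd74* (2.17), *Itgax* (2.07) and *Ccl24* (2.01). The same 5 were higher after scaling to pan-leukocyte genes, at 1.56 to 2.90, against 0.553% of all genes. Of the CSF1-induced genes, 0 were higher, also at an unadjusted p under 0.05, and 2 of 7 (*Cd163* and *Ctsk*) were lower on the macrophage scale, against 87.4% of all tested genes. Several of the CSF2-induced genes are also used by dendritic cells, whose markers moved the same way: 4 of 6 were higher, and the summed level was 13.9 and 12.2 TMM CPM in M7 and M8 and 67.4 and 60.8 in M9 and M10. Those are TMM values: scaled to macrophage markers or to pan-leukocyte genes, 0 of the 6 dendritic cell markers were called higher and 1 was lower. Their median log2 fold change was 0.88 and 0.46 on these 2 scales, beside -2.81 and -3.21 over all tested genes. Other leukocyte lists also lay far above all genes there, with macrophage markers at 0.30 and -0.10 and neutrophil markers at 0.48 and 0.06. Only 3 of the 6 dendritic cell markers had at least 10 counts in every library, so a missing call says little. Their part in the result was not tested, and *Csf2* itself was at 0.194 and 0.272 TMM CPM in M9 and M10.

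**Figure D4:**
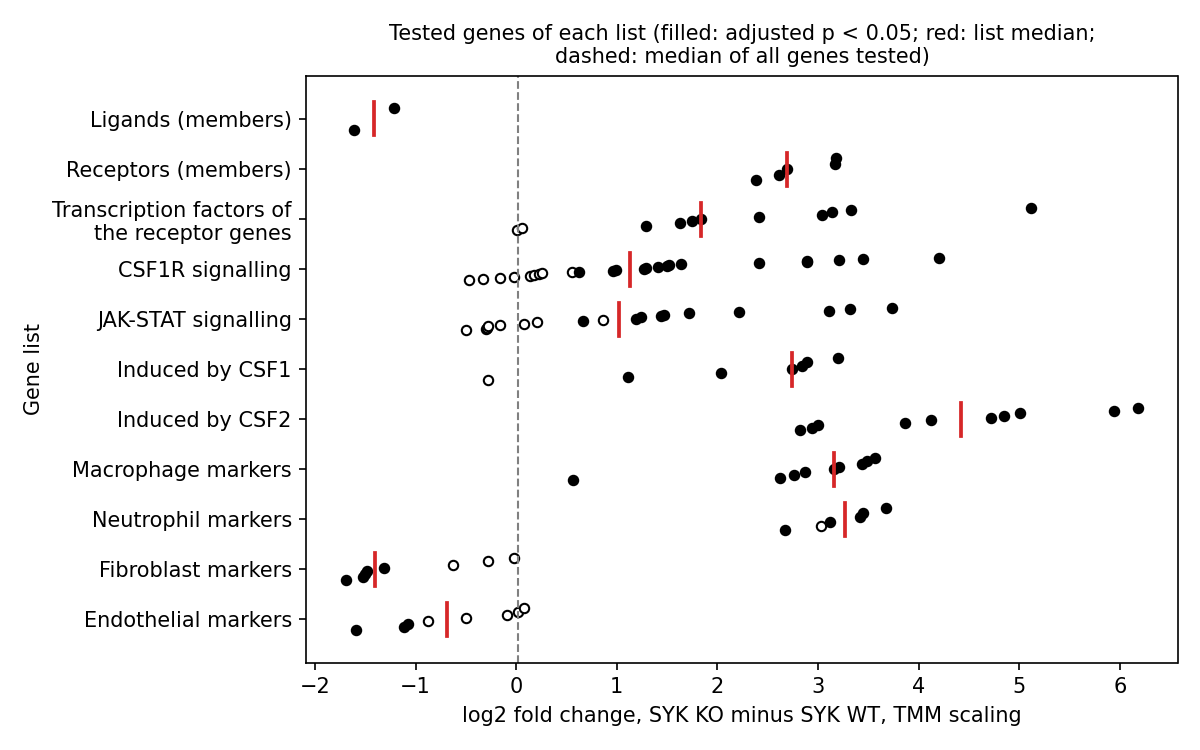
Log2 fold change after TMM scaling of each tested gene of the ligands, the receptors, 5 related gene lists and 4 marker lists. Filled points passed an adjusted p of 0.05, red bars are list medians and the dashed line is the median of all tested genes at 0.02. The 2 tested ligands have a median of -1.41, beside -1.40 over fibroblast markers that run from -1.69 to -0.03. The receptors have a median of 2.69, beside 3.16 over macrophage markers.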

How the data were processed

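RNA was sequenced from 2 TAM libraries labelled SYK WT and 2 labelled SYK KO. Alignment by STAR to mm10 and quantification by Salmon were done by the authors, who deposited whole-number counts per Ensembl gene, not normalized. How whole numbers were made from Salmon's estimates is not given in the sources used here. The submitters' processing notes name STAR 2.6.1d, Salmon 1.4.0, SAMtools 1.9, Picard 2.26 and MultiQC 1.11. The labels describe paired reads on a NovaSeq instrument, the study's methods HiSeq runs of single reads in triplicate.

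Symbols, positions and exon lengths came from GENCODE M21 on GRCm38, which matched 54495 of 54532 genes. Counts were analysed in R 4.3.3 with edgeR 4.0.16 (filterByExpr, TMM, glmQLFit and glmQLFTest, Benjamini-Hochberg adjustment over 16451 genes, threshold 0.05). The steps were run on simulated data in which few genes changed, as many up as down. That run cannot cover a broad shift between libraries like the one seen here. TMM gave factors of 1.22 and 1.19 in M7 and M8 and of 0.876 and 0.787 in M9 and M10. The ± values are SDs of TMM CPM. Libraries of 1 genotype differed by more than sampling noise (chi-square per degree of freedom 50.6 in SYK WT and 168 in SYK KO). No molecular identifiers mark single molecules, so intervals and floors cover counting error only.

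Within-library ratios used counts per kb of exon and exact permutation tests. Alternatives were DESeq2 1.42.0 with its size factors and Wald test, library size alone, 3 marker scalings, of which the fibroblast one was added after seeing the data, 2 filters, mitochondrial and rRNA-like genes left out, the *Csf2rb* pair summed, and each library left out. The genes named were the 9 members, *Syk*, *Lyz2*, members of 8 pathway lists and 12 marker lists, and the 3 genes most like *Csf1* and *Csf1r*. Members and lists were chosen with earlier results of these data known, so no list count is independent support. Promoters were RefSeq entries of GRCm38.p6.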

Additional observations from a re-analysis of the deposited data

How the results depend on the processing

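Of the 7 tested members, *Csf1* and *Il34* kept their direction under all 14 alternatives run for each. The receptors kept theirs under all but the macrophage and pan-leukocyte scalings. The macrophage scaling turned *Csf1r* (-0.21), *Csf2ra* (-0.48) and *Csf3r* (-0.24), and the pan-leukocyte scaling turned all 5 (*Csf1r* -0.62, *Csf2ra* -0.87, *Csf2rb* -0.0854, *Csf2rb2* -0.0851, *Csf3r* -0.60). The number of receptors called higher went from 5 to 0 under both, and that of ligands called lower from 2 to 0 under the fibroblast scaling. Against 3729 genes higher and 2747 lower, library size alone gave 1677 and 5411, macrophage scaling 117 and 14373, pan-leukocyte scaling 91 and 14922, and fibroblast scaling 8955 and 521. Without 1 library the counts ran from 1478 to 5010 higher and 807 to 4745 lower, 1 to 2 ligands were called lower, and *Csf3* was called higher without M10. Of the pathway list genes, 54 were higher and 2 lower. The lower count was 11 by library size alone, 5 with DESeq2's Wald test, 1 with fibroblast scaling and 0 to 9 without 1 library. The counts were 6 higher and 47 lower with macrophage scaling and 6 and 53 with pan-leukocyte scaling. Apart from these scalings, the cause was not tested. No paired analysis was possible because the labels give each library its own number. With 2 libraries per genotype and 1 left out, the lone library is assumed to vary like the other genotype. The median of all genes moved to -0.52 with library size alone. *Csf2* and *Csf3* are limited by depth, with at most 20 counts in a library.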
